A study of Mus musculus with 12 samples.

Results

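Beta-cell disallowed genes are genes that most tissues use but that mature insulin-producing cells keep low. The 10 described here, Ldha, Slc16a1, Hk1, Hk2, Rest, Acot7, Oat, Igfbp4, Cat and Lmo4, were taken by symbol from a table of 37991 genes measured by bulk RNA-seq in mouse pancreatic islets, and all 10 passed the filter on low counts that left 15961 genes for testing. Their best known role is in glucose sensing. A β-cell links its oxygen-dependent glucose metabolism to insulin release, and a high-affinity hexokinase would let it burn glucose at fasting levels, whereas lactate dehydrogenase and the monocarboxylate transporter would let pyruvate leave as lactate or let lactate and pyruvate from exercising muscle enter and trigger secretion. Silencing of these genes is part of how a β-cell matures after birth, and REST, a repressor of neuronal genes, must itself be low for the neuron-like secretory genes of the islet to be on.

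The islets came from male C57BL/6 mice. Tg7 mice carry a transgene that overexpresses miR-7a2 in β-cells, and their Wt littermates served as controls. Islets were taken at 2 weeks (2w), when Tg7 mice were normoglycaemic, and at 12 weeks (12w), when they were hyperglycaemic, and each of the 4 groups held 3 libraries. Each library was made from a pool of at least 3 animals, so that the spread between libraries is a spread between pools, and the islets were whole, with β-cells beside the other endocrine cells, vessels and stroma.

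Library totals ran from 11610697 to 17515758 counts. The insulin genes Ins1 and Ins2 took 12.1% ± 2.91 of the counts in Wt 2w, 2.85% ± 1.15 in Tg7 2w, 24.0% ± 8.02 in Wt 12w and 8.14% ± 0.0862 in Tg7 12w (mean ± SD, n = 3 libraries). Of 10 β-cell marker genes, 8 were downregulated in Tg7 islets at each age. Markers of lymphocytes summed to 14.8 CPM (counts scaled to a common library size) in replicate 1 of Tg7 2w and to at most 0.944 CPM in any other library. The summed markers of stellate cells and fibroblasts lay between 84.8 and 147 CPM in Wt 12w, below every other library, whose lowest sum was 315 CPM. In replicates 2 and 4 of Wt 12w, a gene's deviation from its mean in that group followed its GC content (Spearman's rho of 0.412 and -0.257 across 14660 genes), more strongly than in any other library. With transcript length the rho was -0.264 and 0.381 in these libraries, and 0.262 in replicate 1 of Tg7 2w.

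MicroRNAs of the miR-7 family lower messages that pair with bases 2 to 8 of the microRNA, the seed. The mature strand overexpressed in Tg7 mice is shown here with its seed in capitals, as listed by RefSeq on GRCm38.p6, because 4 of the 10 disallowed genes hold the matching 7 bases GTCTTCC in the 3′ UTR. The stretches of their UTRs around each match, with the match in capitals, were read from the mm9 genome and the GENCODE vM1 annotation in the direction of the message.
mmu-miR-7a-5p: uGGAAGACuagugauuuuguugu
Ldha: aGTCTTCCccgtgtcct
Rest, first match: gtggggggGTCTTCCatttgaaaa
Rest, second match: tttgtctaGTCTTCCaagaagggt
Acot7: gtGTCTTCCtcctgtccc
Cat: tgcatcatGTCTTCCaaaagtaac

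The matches stood at chr7:54110513-54110519 on the plus strand for Ldha, at chr5:77714365-77714371 and chr5:77714774-77714780 on the plus strand for Rest, at chr4:151645684-151645690 on the plus strand for Acot7 and at chr2:103294351-103294357 on the minus strand for Cat. The Ldha and Acot7 matches began at bases 2 and 3 of the UTR, directly after the stop codon. Rest with its 3448-base UTR and Cat with 907 bases held matches followed by an A. The search covered the sense strand of the UTR, and 2074 of the 14406 tested genes with an annotated 3′ UTR (14.4%) held at least 1 match. None of these 4 genes was downregulated in Tg7 islets at either age in edgeR's quasi-likelihood test, in which Ldha and Cat rose at 2w. That test called 4.55% of all tested genes lower at 2w and 11.2% at 12w, so that none of 4 lies near these shares. It called 6.07% higher at 2w. Over all tested genes, the median log2 fold change of Tg7 over Wt was -0.04 with a match and 0.04 without at 2w, and -0.09 against -0.01 at 12w.

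Levels between genes were compared as CPM per kb of exon. Within whole islets some members stood low among the tested genes and others did not. The name of the group compares β-cells with other tissues, which these levels do not measure. In mature Wt 12w islets, where the median tested gene stood at 5.35 CPM per kb, Hk2 was the lowest at 0.0587, at the 2.1 percentile of tested genes, followed by Slc16a1 at 0.350 and Rest at 0.418. Hk1, Acot7 and Lmo4 stood at 1.45, 1.90 and 3.33 CPM per kb, also under the median. Oat was close to it at 5.58, and Cat, Ldha and Igfbp4 were above it at 13.5, 13.6 and 31.1, the last at the 89.3 percentile. The ranges of Cat (9.60 to 19.4) and Ldha (10.6 to 19.0) over the 3 libraries overlapped, as did those of Slc16a1 (0.301 to 0.427) and Rest (0.339 to 0.539). In these whole islets a message at such a level can come from any cell type, and fewer cells of a type and less RNA per cell cannot be told apart.

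**Figure D1:**
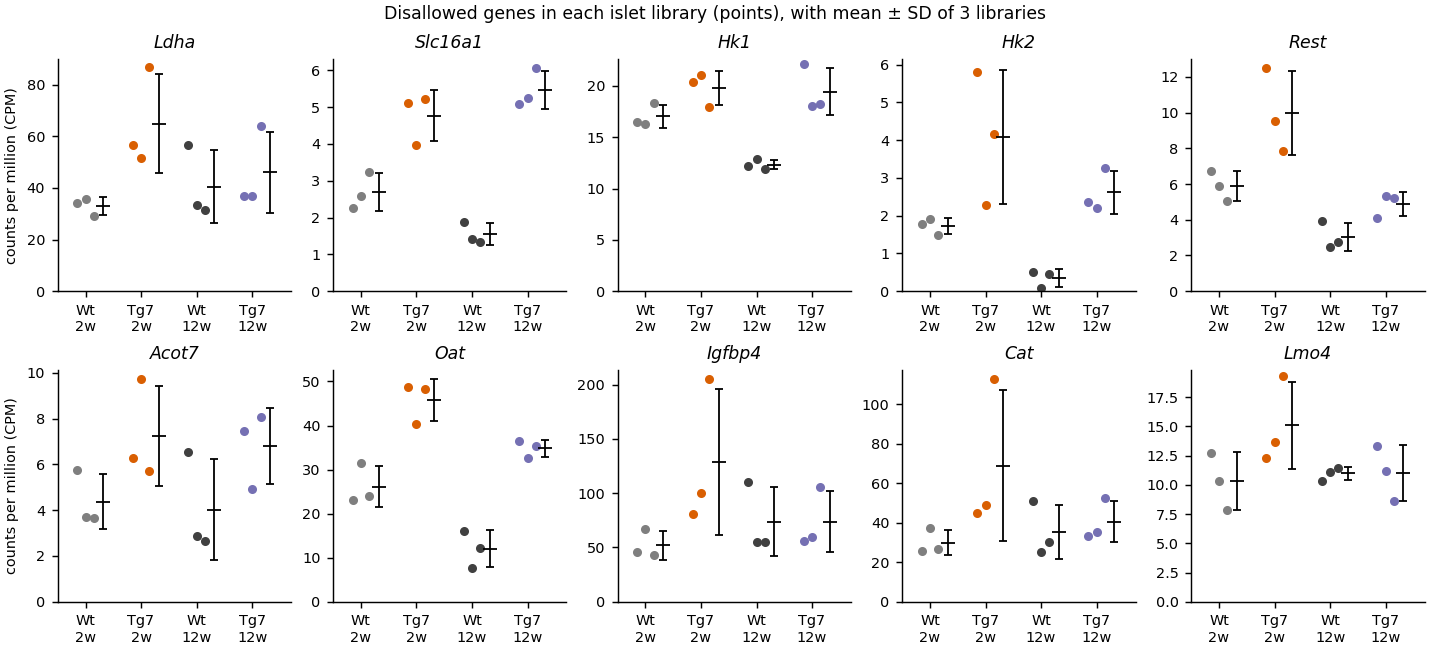
Scaled counts (CPM, y axis, from 0) of each of the 10 disallowed genes in the 12 islet libraries, by group (x axis), with the mean ± SD of the 3 libraries beside the points. Slc16a1, Hk2 and Oat were lowest in Wt 12w and higher in every Tg7 12w library, whereas Ldha, Igfbp4 and Cat were highest in replicate 3 of Tg7 2w.

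Which of these genes were affected by the transgene was asked at each age. At 2w, 4 of the 10 were upregulated in Tg7 islets (Ldha, Oat, Igfbp4 and Cat) and none was downregulated, where 6.07% of all tested genes were called higher and 4.55% lower at an adjusted p under 0.05 (edgeR quasi-likelihood test, Benjamini-Hochberg). The fitted log2 fold changes of the 10 ran from 0.22 for Hk1 to 1.31 for Igfbp4, with a median of 0.82 beside 0.03 over all tested genes. For 7 members every Tg7 library lay above every Wt library, which held for 17.8% of tested genes. At 12w a different set of 4 was upregulated, Slc16a1, Hk1, Hk2 and Oat, where 12.5% of tested genes were called higher and 11.2% lower, and 5 members lay wholly above Wt (20.7% of tested genes). The median log2 fold change of the 10 at 12w was 0.68 beside -0.01 over all tested genes, and 4 of them, Ldha, Igfbp4, Cat and Lmo4, lay between 0.00 and 0.21 with standard errors of 0.23 to 0.36.

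The calls at 2w rested on few libraries. Without replicate 1 or replicate 3 of Wt 2w, or without replicate 3 of Tg7 2w, 0 of the 10 were called, and without replicate 2 of Wt 2w or replicate 2 of Tg7 12w, 2 were. DESeq2 called 7 of the 10 at 2w, adding Slc16a1, Hk2 and Rest. At 12w the same 4 were called under every alternative run, with Rest and Acot7 added when replicate 1 of Wt 12w was left out or library size alone was used.

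**Figure D2:**
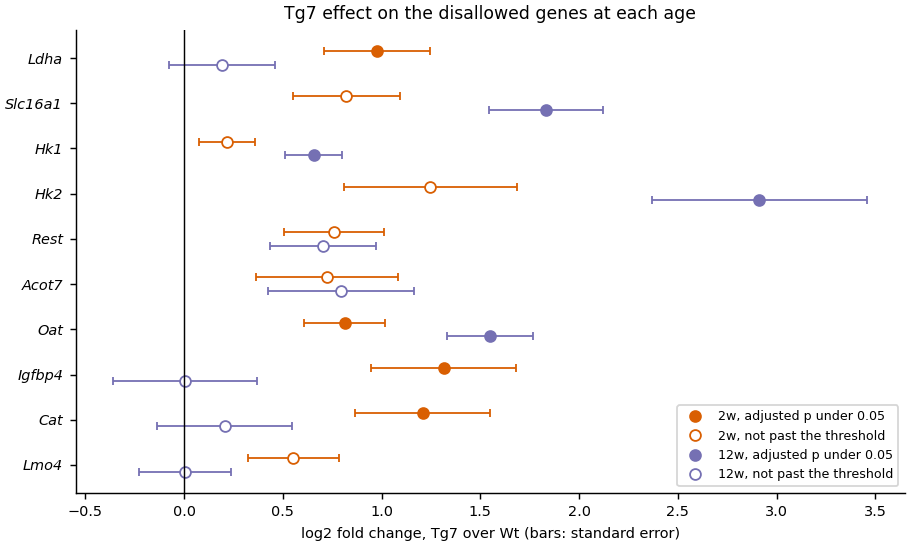
Log2 fold change of Tg7 over Wt (x axis; bars are standard errors) for each disallowed gene (y axis) at 2w and 12w, with filled points for an adjusted p under 0.05. At 12w Hk2, Slc16a1, Oat and Hk1 were past the threshold, with values of 2.91, 1.83, 1.55 and 0.66.

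Ldha encodes the muscle-type subunit of lactate dehydrogenase, which turns pyruvate into lactate. It was measured at 34.3, 35.7 and 29.3 CPM in Wt 2w and at 56.6, 51.4 and 86.9 CPM in Tg7 2w. At 12w the values were 56.7, 33.3 and 31.6 CPM in Wt and 37.0, 36.8 and 64.2 CPM in Tg7. All 3 Tg7 libraries were above Wt at 2w, while at 12w the groups overlapped and 1 library of each stood above its group. The log2 fold change was 0.98 (SE 0.27, adjusted p = 0.0342) at 2w and 0.19 (SE 0.27, adjusted p = 0.666) at 12w.

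Its partner Ldhb, the heart-type subunit, was the more abundant message in every library per kb of exon. The ratio of Ldha to Ldhb, in CPM per kb, was 0.297 ± 0.0730 in Wt 2w, 0.285 ± 0.128 in Tg7 2w, 0.182 ± 0.0281 in Wt 12w and 0.283 ± 0.0282 in Tg7 12w (SD, n = 3). At 12w every Tg7 ratio (0.252 to 0.307) was above every Wt ratio (0.154 to 0.210). The exact two-sided permutation test gave p = 0.1 for this contrast, the smallest value that 3 against 3 libraries allow, and 0.2 after Benjamini-Hochberg adjustment over the 8 ratio tests made. Ldhb itself was not past the threshold at either age, with log2 fold changes of 1.24 (SE 0.41, adjusted p = 0.0680) at 2w and -0.47 (SE 0.41, adjusted p = 0.455) at 12w.

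Slc16a1 encodes MCT1, the plasma membrane carrier of lactate and pyruvate. Its values were 2.25, 2.58 and 3.25 CPM in Wt 2w, 5.12, 3.96 and 5.22 CPM in Tg7 2w, 1.89, 1.43 and 1.33 CPM in Wt 12w, and 5.07, 5.26 and 6.06 CPM in Tg7 12w. Every Tg7 library was above every Wt library of both ages. The contrast on the log2 scale was 0.82 (SE 0.27, adjusted p = 0.0656) at 2w, not past the threshold, and 1.83 (SE 0.29, adjusted p = 0.000489) at 12w, a fold of 3.56.

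Bsg encodes basigin, the chaperone that MCT1 needs to reach the cell surface. It rose with log2 fold changes of 0.48 (SE 0.13, adjusted p = 0.0284) at 2w and 1.0 (SE 0.13, adjusted p = 8.95e-05) at 12w, from 448 ± 67.4 to 895 ± 42.4 CPM at 12w. Slc16a3, the lactate exporter of glycolytic cells, stayed between 0.239 and 0.471 CPM per kb in the group means and was not called at either age. The mitochondrial pyruvate carrier subunit Mpc1 fell by 1.06 at 12w on the log2 scale (SE 0.13, adjusted p = 7.75e-05), whereas its partner Mpc2 had a value of -0.26 (SE 0.16, adjusted p = 0.294), which became 0.20 with library size alone.

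Among 18 tested genes of pyruvate and lactate handling, 3 rose and 1 fell at 2w, where 6.07% and 4.55% of all tested genes did. At 12w 2 rose and 3 fell, beside 12.5% and 11.2%. Pcx, which carries pyruvate into the citric acid cycle as oxaloacetate and is abundant in β-cells, fell by 0.72 at 2w (SE 0.17, adjusted p = 0.0180) and by 1.15 at 12w (SE 0.18, adjusted p = 0.000395). Pdk1, a kinase that inactivates pyruvate dehydrogenase, was 0.50 at 2w (SE 0.19, adjusted p = 0.104) and rose by 0.72 at 12w (SE 0.19, adjusted p = 0.0133). The median of the list was 0.09 at 2w and -0.30 at 12w, beside 0.03 and -0.01 over all tested genes, so that the list as a whole did not go the way of Slc16a1.

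The hexokinases Hk1 and Hk2 phosphorylate glucose at the low concentrations of fasting blood. Hk1 was measured at 16.5, 16.3 and 18.4 CPM in Wt 2w and 20.4, 21.1 and 17.9 CPM in Tg7 2w, with overlapping groups. At 12w it stood at 12.2, 12.9 and 11.9 CPM in Wt and 22.1, 18.0 and 18.2 CPM in Tg7, which did not overlap. The fitted log2 difference was 0.22 (SE 0.14, adjusted p = 0.360) at 2w and 0.66 (SE 0.15, adjusted p = 0.00525) at 12w.

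Hk2, the muscle and fat hexokinase, was near the floor in Wt 12w. The Wt 12w libraries held 4, 1 and 7 Hk2 reads (0.504, 0.0794 and 0.467 CPM) and the Tg7 12w libraries held 42, 40 and 57 (2.37, 2.21 and 3.26 CPM). At 2w the values were 1.78, 1.92 and 1.49 CPM in Wt and 5.82, 2.27 and 4.17 CPM in Tg7. The groups did not overlap at either age, though replicate 2 of Tg7 2w was only slightly above Wt. The log2 fold change was 1.25 (SE 0.44, adjusted p = 0.0825) at 2w and 2.91 (SE 0.54, adjusted p = 0.00167) at 12w, the latter with a fold of 7.54 that rests on the few Wt reads.

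Hk2 made up a larger part of the hexokinase pair in Tg7 12w, at 0.195 ± 0.0542 of Hk1, than in Wt 12w, at 0.0412 ± 0.0281 (ratio of CPM per kb of exon, SD, n = 3), without overlap. The exact two-sided permutation test gave p = 0.1, again the smallest possible, and 0.2 after adjustment over the 8 ratio tests. At 2w the ratio was 0.298 ± 0.130 in Tg7 and 0.146 ± 0.0270 in Wt (exact permutation p = 0.3, adjusted 0.4), and in Wt it was lower at 12w than at 2w in every library (exact permutation p = 0.1, adjusted 0.2).

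**Figure D3:**
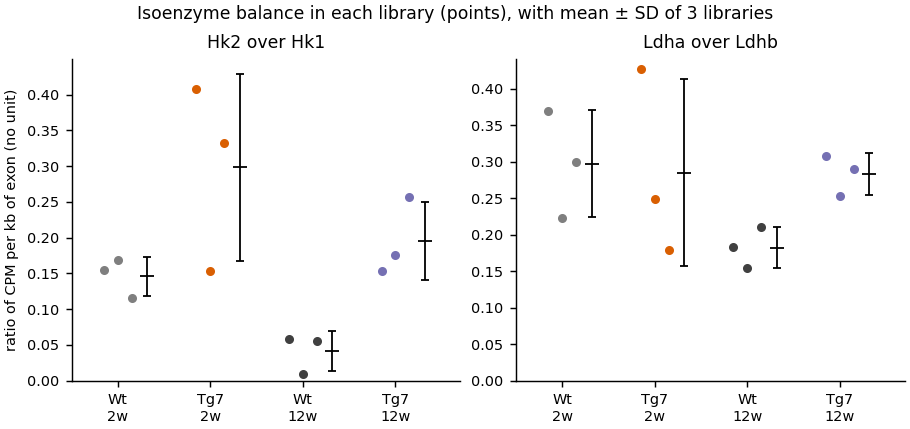
Ratios of CPM per kb of exon (y axis, no unit, from 0) for Hk2 over Hk1 and Ldha over Ldhb in each of the 12 libraries by group (x axis), with mean ± SD of 3 libraries. At 12w both ratios were higher in every Tg7 library than in every Wt library, while both overlapped at 2w.

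The other genes of glucose entry that were called went down. Of 5 tested genes of glucose uptake and phosphorylation, 0 rose at either age, 2 fell at 2w and 3 fell at 12w. Among all tested genes 6.07% rose and 4.55% fell at 2w, and 12.5% rose and 11.2% fell at 12w. Slc2a2, the high-capacity glucose transporter of mouse β-cells, fell from 248 ± 101 CPM in Wt to 33.8 ± 11.3 CPM in Tg7 at 12w (log2 fold change -2.88, SE 0.30, adjusted p = 1.87e-05) and from 177 ± 3.90 to 35.3 ± 9.17 CPM at 2w (-2.32, SE 0.30, adjusted p = 0.000286). G6pc2, the islet glucose-6-phosphatase subunit, which opposes glucose phosphorylation, fell by 3.56 at 2w (SE 0.21, adjusted p = 1.28e-06) and by 3.40 at 12w (SE 0.21, adjusted p = 1.88e-07). Slc2a1, the transporter of most other cells, was -0.18 at 2w (SE 0.20, adjusted p = 0.617) and fell by 1.32 at 12w (SE 0.21, adjusted p = 0.000497).

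Rest encodes the repressor that silences neuronal genes outside neurons. It was measured at 6.70, 5.89 and 5.05 CPM in Wt 2w and 12.5, 9.55 and 7.85 CPM in Tg7 2w, and at 3.91, 2.46 and 2.73 CPM in Wt 12w and 4.12, 5.31 and 5.21 CPM in Tg7 12w. The Tg7 libraries were above the Wt libraries of their age at 2w and at 12w. The log2 fold changes of 0.76 (SE 0.25, adjusted p = 0.0675) and 0.70 (SE 0.27, adjusted p = 0.0740) did not pass the threshold. Both Rest and Hk2 had their highest value of all libraries in replicate 1 of Tg7 2w, the library with the lymphocyte markers. Oat was highest there too, at 48.7 CPM, beside 48.4 CPM in replicate 3 of Tg7 2w. Without replicate 1 of Tg7 2w the log2 fold changes at 2w were 0.56 for Rest and 0.91 for Hk2.

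Known REST target genes are mostly parts of the secretory and synaptic machinery. More of them fell than rose at 2w, while calls went both ways at 12w. Of 22 tested, 1 rose and 7 fell at 2w, where 6.07% of all tested genes were called higher and 4.55% lower. At 12w 6 rose and 4 fell, beside 12.5% and 11.2%. The medians were -0.29 at 2w and 0.13 at 12w, beside 0.03 and -0.01 over all tested genes. Syt4, a vesicle synaptotagmin, fell by 1.36 at 2w (SE 0.18, adjusted p = 0.000393) and by 1.55 at 12w (SE 0.18, adjusted p = 4.30e-05). Gjd2, the connexin that couples β-cells, fell by 0.93 at 2w (SE 0.16, adjusted p = 0.00198) and by 1.61 at 12w (SE 0.16, adjusted p = 1.07e-05). Grin1, an NMDA receptor subunit, fell by 1.07 (SE 0.16, adjusted p = 0.00104) and 0.56 (SE 0.16, adjusted p = 0.0220). The 6 that rose at 12w were Stmn2, Gria2, L1cam, Cplx2, Scn2a1 and Bdnf, with log2 fold changes of 0.46 to 3.09, named here after their values were seen.

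Oat encodes ornithine aminotransferase, a mitochondrial enzyme that links ornithine to glutamate and proline, and it was the member called at both ages. Its values were 23.0, 31.5 and 23.9 CPM in Wt 2w, 48.7, 40.4 and 48.4 CPM in Tg7 2w, 16.1, 7.70 and 12.3 CPM in Wt 12w, and 36.4, 32.6 and 35.3 CPM in Tg7 12w. No Wt library reached a Tg7 library of either age. The log2 fold change was 0.81 (SE 0.21, adjusted p = 0.0232) at 2w and 1.55 (SE 0.22, adjusted p = 0.000202) at 12w. Oat overlaps Fgfr2 on the same strand in the annotation, and Fgfr2 held 683 reads over the 12 libraries against 6036 for Oat.

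Among the neighbours of Oat in ornithine and proline metabolism few were called. Of 15 tested, 1 rose and 0 fell at 2w and 1 rose and 3 fell at 12w (edgeR, adjusted p under 0.05), with medians of 0.17 and -0.24. These counts lie near the shares over all tested genes, 6.07% higher and 4.55% lower at 2w and 12.5% and 11.2% at 12w. The 3 that fell at 12w were Odc1, the first enzyme of polyamine synthesis, at -0.63 (SE 0.17, adjusted p = 0.0160), Azin1, which protects it from degradation, at -0.61 (SE 0.17, adjusted p = 0.0189), and Glul, glutamine synthetase, at -0.52 (SE 0.15, adjusted p = 0.0202).

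Acot7 encodes a thioesterase that splits long-chain acyl-CoA into free fatty acid and CoA. It stood at 5.76, 3.68 and 3.67 CPM in Wt 2w and 6.30, 9.74 and 5.71 CPM in Tg7 2w, and at 6.55, 2.86 and 2.67 CPM in Wt 12w and 7.44, 4.92 and 8.07 CPM in Tg7 12w. The groups overlapped at both ages, through replicate 1 of Wt in each. The log2 fold changes of 0.72 (SE 0.36, adjusted p = 0.214) and 0.80 (SE 0.37, adjusted p = 0.141) were not past the threshold. Of 10 other tested acyl-CoA thioesterases, Acot9 rose and Acot11 fell at 2w, by 0.77 (SE 0.17, adjusted p = 0.0111) and 0.55 (SE 0.13, adjusted p = 0.0181), and edgeR called 0 at 12w. Over all tested genes it called 6.07% higher and 4.55% lower at 2w, and 12.5% and 11.2% at 12w.

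Cat encodes catalase, the peroxisomal enzyme that breaks down hydrogen peroxide. It was measured at 25.8, 37.3 and 26.5 CPM in Wt 2w and 44.8, 48.9 and 113 CPM in Tg7 2w. At 12w it stood at 50.8, 25.1 and 30.1 CPM in Wt and 33.5, 35.4 and 52.4 CPM in Tg7. Tg7 was above Wt at 2w with replicate 3 far above the others, and the groups overlapped at 12w. On the log2 scale Tg7 differed from Wt by 1.21 (SE 0.34, adjusted p = 0.0384) at 2w, 0.64 without that library, and 0.21 (SE 0.34, adjusted p = 0.722) at 12w.

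The other genes of peroxide removal went in both directions. Of 15 tested, 2 rose and 1 fell at 2w, where 6.07% and 4.55% of all tested genes did. At 12w 2 rose and 4 fell, beside 12.5% and 11.2%. The medians were 0.23 and -0.01. Prdx4, the peroxiredoxin of the endoplasmic reticulum, rose by 1.02 at 2w (SE 0.16, adjusted p = 0.00113) and by 1.91 at 12w (SE 0.16, adjusted p = 2.81e-06). Gpx2, a glutathione peroxidase, fell by 1.48 (SE 0.26, adjusted p = 0.00290) and 1.51 (SE 0.27, adjusted p = 0.00108), and Prdx6 fell by 0.47 at 12w (SE 0.12, adjusted p = 0.0136).

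Igfbp4 encodes a secreted protein that binds insulin-like growth factors. Its values were 45.7, 67.3 and 42.7 CPM in Wt 2w and 81.0, 100.3 and 205 CPM in Tg7 2w, and 110 CPM, 55.1 CPM and 55.5 CPM in Wt 12w against 55.5, 59.2 and 106 CPM in Tg7 12w. Tg7 was wholly above Wt at 2w, and at 12w the groups covered the same range. Tg7 differed from Wt by a log2 value of 1.31 (SE 0.37, adjusted p = 0.0367) at 2w, 0.79 without replicate 3 of Tg7 2w, and 0.01 (SE 0.36, adjusted p = 0.993) at 12w.

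Of 11 other tested genes of IGF binding, 4 rose and 1 fell at 2w, where 6.07% and 4.55% of all tested genes did. At 12w 5 rose and 1 fell, beside 12.5% and 11.2%. The medians were 1.03 and 1.0. Igfbp7, a secreted binding protein of vessels, rose by 0.60 (SE 0.12, adjusted p = 0.00588) and 0.76 (SE 0.12, adjusted p = 0.000472). Stc2, stanniocalcin 2, rose by 2.87 (SE 0.54, adjusted p = 0.00405) and 1.70 (SE 0.55, adjusted p = 0.0377). It was near the floor in Wt, at 0.213 to 0.831 CPM at 2w and 0.378 to 0.667 CPM at 12w. The receptor gene Igf1r fell by 1.42 (SE 0.31, adjusted p = 0.00959) and 1.83 (SE 0.31, adjusted p = 0.000922). The medians of this list lay above the 0.82 and 0.68 of the 10 disallowed genes, beside 0.03 and -0.01 for all tested genes.

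Lmo4 encodes a LIM-only protein that bridges transcription factors through LDB1. It stood at 12.8, 10.3 and 7.82 CPM in Wt 2w and 12.3, 13.6 and 19.3 CPM in Tg7 2w, and at 10.3, 11.1 and 11.5 CPM in Wt 12w and 13.3, 11.2 and 8.58 CPM in Tg7 12w. The groups overlapped at both ages, with log2 fold changes of 0.55 (SE 0.23, adjusted p = 0.140) and 0.00 (SE 0.23, adjusted p = 0.993). Of 9 tested partners, edgeR called 0 at 2w, where 6.07% of all tested genes rose and 4.55% fell. At 12w 4 rose and 1 fell, beside 12.5% and 11.2%. Ssbp3, which stabilises LDB1 complexes, rose by 0.55 at 12w (SE 0.10, adjusted p = 0.00189) and Ldb2 by 0.92 (SE 0.26, adjusted p = 0.0195), and Lmo2 fell by 0.94 (SE 0.29, adjusted p = 0.0310).

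Normal maturation was followed in Wt islets from 2w to 12w. In these, 4 of the 10 members fell, Hk1, Hk2, Rest and Oat, and none rose, where 7.91% of tested genes were called lower. All 3 Wt 12w libraries lay below all 3 Wt 2w libraries for these 4 and for Slc16a1, against 15.6% of tested genes. Hk2 stood at -2.32 on the log2 scale (SE 0.55, adjusted p = 0.0120), Oat at -1.13 (SE 0.22, adjusted p = 0.00315), Rest at -0.97 (SE 0.27, adjusted p = 0.0249) and Hk1 at -0.47 (SE 0.15, adjusted p = 0.0439). Slc16a1 stood at -0.82 (SE 0.29, adjusted p = 0.0741). Ldha, Igfbp4, Cat, Acot7 and Lmo4 overlapped between the ages, with values from -0.16 to 0.50.

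The count of 4 fell to 2 without replicate 1 or 2 of Wt 2w or without replicate 2 of Wt 12w. It also fell to 2, Hk2 and Oat, when GC content and transcript length were fitted as offsets, which was added after seeing the data. The genes that fell moved beside other cell types: all 7 endothelial markers and 5 of 7 stellate and fibroblast markers were also lower in Wt 12w than in Wt 2w. The endothelial markers summed to 827 to 1057 CPM in Wt 2w and 353 to 483 CPM in Wt 12w, and the 3 proliferation markers fell too. Lower as well were 2 of 4 alpha-cell, 1 of 3 delta- and PP-cell, 1 of 6 ductal and 1 of 4 Schwann cell markers. Higher were 4 of 10 β-cell, 2 of 7 macrophage and 1 of 6 acinar markers, and no β-cell marker was lower. Over all 15961 tested genes 1261 were called higher and 1263 lower. The part of these cell types in the fall of Hk1, Hk2, Rest and Oat was not tested.

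In Tg7 islets over the same time 1 of the 10, Rest, fell, at -1.03 on the log2 scale (SE 0.25, adjusted p = 0.0156), where 6.01% of tested genes were called lower. Without replicate 1 of Tg7 2w or replicate 1 of Tg7 12w it was not called, at -0.84 and -0.92. Cell type markers moved beside it. Lower in Tg7 12w than in Tg7 2w were 4 of 7 stellate and fibroblast, all 3 proliferation and 2 of 4 alpha-cell markers. So were 2 of 6 ductal, 1 of 3 delta- and PP-cell, 1 of 7 endothelial and 1 of 10 β-cell markers. Higher were 4 of 10 β-cell, 1 of 7 macrophage, 1 of 4 Schwann cell and 1 of 3 erythroid markers. A rise was also called for 1 stellate and fibroblast and 1 ductal marker. Over all 15961 tested genes 1120 were called higher and 959 lower. The proliferation markers summed to 51.4 to 174 CPM in Tg7 2w and 19.96 to 23.7 CPM in Tg7 12w, and the stellate and fibroblast markers to 501 to 644 CPM and 377 to 399 CPM. Their part in the fall of Rest was not tested. Rest and Oat lay wholly lower at 12w (19.2% of tested genes), and Oat stood at -0.40 (SE 0.20, adjusted p = 0.227). Hk1, at -0.03 (SE 0.14), and Slc16a1, at 0.19 (SE 0.26), differed by less than their standard error between the ages in Tg7, and Hk2 stood at -0.65 (SE 0.43).

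Whether the Tg7 effect differed between 2w and 12w was tested as an interaction. By edgeR 0 of the 10 members passed, where 1.18% of tested genes did, 5 had an unadjusted p under 0.05, as had 14.5% of tested genes, and DESeq2 also called 0. The 5 were Slc16a1 at 1.01 (SE 0.39, adjusted p = 0.257), Hk2 at 1.67 (SE 0.70, adjusted p = 0.292), Oat at 0.73 (SE 0.30, adjusted p = 0.275) and Hk1 at 0.44 (SE 0.20, adjusted p = 0.339), all larger at 12w, and Igfbp4 at -1.31 (SE 0.52, adjusted p = 0.264), smaller at 12w. The sets called at 2w and at 12w were therefore not shown to differ.

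The rise of Slc16a1, Hk1, Hk2 and Oat at 12w also moved beside other cell types. All 7 endothelial markers and 6 of 7 stellate and fibroblast markers were upregulated in Tg7 12w. Their sums were 759 to 819 CPM for endothelial markers in Tg7 12w, against 353 to 483 CPM in Wt 12w, and 377 to 399 CPM for stellate and fibroblast markers, against 84.8 to 147 CPM, with no marker of either list at 0 in any library. Ductal markers, of which 2 of 6 were upregulated, summed to 705 to 994 CPM in Tg7 12w and 410 to 595 CPM in Wt 12w, and erythroid markers, with 1 of 3 upregulated, to 28.5 to 40.7 CPM and 6.20 to 23.1 CPM. Of the Schwann cell markers 1 of 4 was upregulated, and of the macrophage markers 1 of 7 was downregulated. Among all tested genes 12.5% were called higher and 11.2% lower. The part of these cell types in the result was not tested.

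At 2w the endothelial sums overlapped (827 to 1057 CPM in Wt, 932 to 997 CPM in Tg7) with 0 of 7 markers called by edgeR, and 5 of 7 stellate and fibroblast markers were upregulated, with sums of 501 to 644 CPM in Tg7 and 315 to 457 CPM in Wt. Delta- and PP-cell markers, of which 1 of 3 was upregulated, summed to 6137 to 9749 CPM in Tg7 2w and 4068 to 5910 CPM in Wt 2w. Of the macrophage markers 1 of 7 and of the acinar markers 1 of 6 were upregulated, where 6.07% of all tested genes were. The median log2 fold change was -0.06 over the macrophage markers and 2.18 over the acinar markers. Within Tg7 2w both sums were highest in replicate 1, the library with the lymphocyte markers. Macrophage markers summed to 105 CPM there and to 63.6 and 57.2 CPM in replicates 2 and 3. The acinar sums were 14.99, 6.30 and 0.596 CPM. The part of these cell types in the rise of Ldha, Oat, Igfbp4 and Cat was not tested. Acinar markers summed to at most 14.99 CPM in any library.

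Across the 12 libraries the members fell into more than one pattern, given here as a description over libraries that share their group means. Ldha, Igfbp4 and Cat rose and fell together, with Pearson's r of 0.957 for Ldha with Igfbp4, 0.943 for Ldha with Cat and 0.975 for Igfbp4 with Cat on log2 CPM. After each group's mean was removed, the values were 0.931, 0.889 and 0.975, so that these genes varied together within groups as well. All 3 were highest in replicate 3 of Tg7 2w, replicate 1 of Wt 12w and replicate 3 of Tg7 12w within their groups. The tested genes most like Ldha were Aqp1, a water channel (0.979), Gsta4, a glutathione transferase (0.968), Igfbp4, Tmem229a (0.943) and Cat.

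Aqp1 stood at 31.3, 37.3 and 29.3 CPM in Wt 2w, 72.1, 69.2 and 126 CPM in Tg7 2w, 64.9, 35.5 and 29.7 CPM in Wt 12w and 46.4, 44.0 and 73.4 CPM in Tg7 12w, with the same libraries on top.

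Hk2 and Oat formed the closest pair of the remaining members, with r of 0.976, and 0.824 within groups. Slc16a1 correlated with Oat at 0.895 and with Hk2 at 0.875, but at 0.440 and 0.422 within groups. The tested genes most like Slc16a1 over the 12 libraries were Cep70, a centrosomal protein (0.968), the long non-coding RNA Miat (0.967), Dlk1, an imprinted Notch-family ligand of fetal tissue (0.965), the integrin Itgb3 (0.962) and Ldlrad3 (0.959). Dlk1 stood at 21.9, 10.2 and 13.7 CPM in Wt 12w and at 129, 172 and 138 CPM in Tg7 12w, lowest in Wt 12w as Slc16a1 was.

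**Figure D4:**
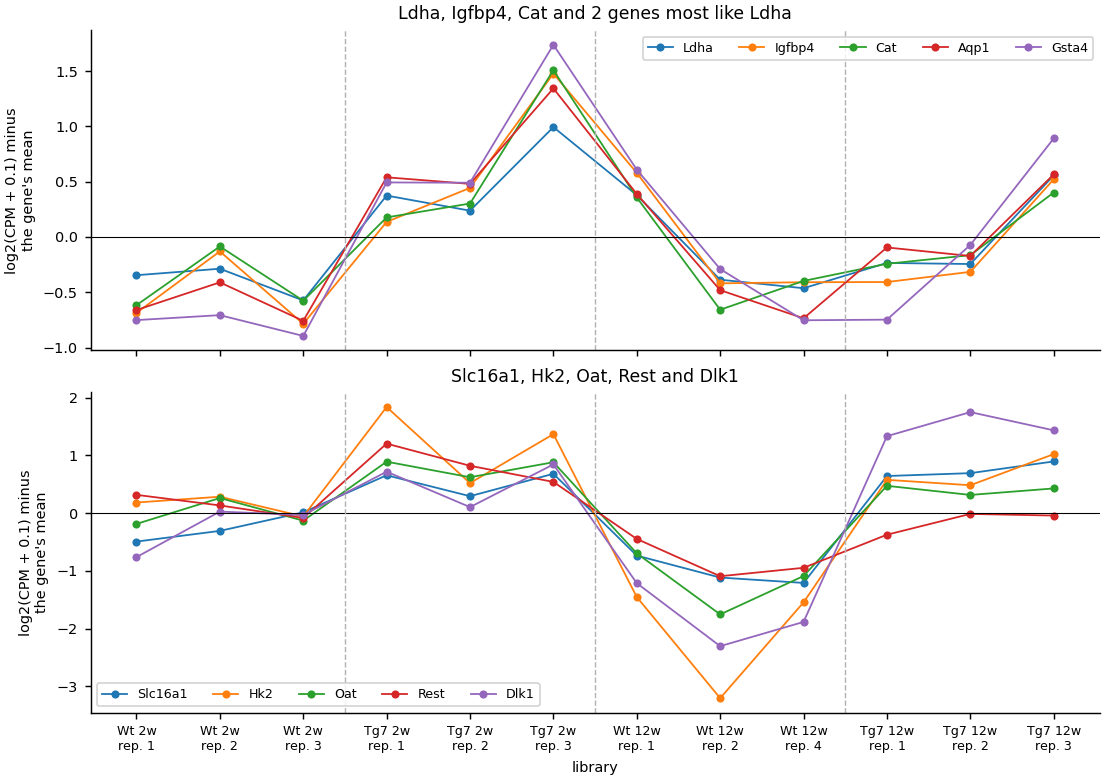
Log2(CPM + 0.1) minus the mean of each gene (y axis) in the 12 libraries (x axis, groups parted by dashed lines). In the upper panel Ldha, Igfbp4, Cat, Aqp1 and Gsta4 peaked in replicate 3 of Tg7 2w; in the lower panel Slc16a1, Hk2, Oat, Rest and Dlk1 were lowest in Wt 12w, with Hk2 at 1 read in replicate 2.

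Further genes that the field counts among the disallowed ones rose in part. Of 8 tested, 2 were upregulated at 2w and 3 at 12w, and none was downregulated, with medians of 0.68 and 0.51. Among all tested genes 6.07% were called higher and 4.55% lower at 2w, and 12.5% and 11.2% at 12w. Zfp36l1, which destabilises messages with AU-rich ends, rose from 43.0 ± 7.09 to 64.2 ± 13.1 CPM at 2w (0.58, SE 0.16, adjusted p = 0.0354) and from 23.0 ± 1.74 to 45.5 ± 3.04 CPM at 12w (0.98, SE 0.16, adjusted p = 0.000767). Pdgfra, the receptor of platelet-derived growth factor that marks mesenchymal cells, rose by 2.46 (SE 0.63, adjusted p = 0.0246) with overlapping groups at 2w, and by 2.20 (SE 0.70, adjusted p = 0.0356) at 12w. Its Tg7 2w values were 17.1, 1.62 and 5.56 CPM, highest in replicate 1, the library with the lymphocyte markers. Wt 2w held 1.19, 2.21 and 1.06 CPM. Wt 12w was near the floor, at 0.533 to 0.882 CPM. Smad3, a mediator of TGFβ signalling, was 0.55 (SE 0.20, adjusted p = 0.0943) at 2w and rose by 0.70 (SE 0.22, adjusted p = 0.0322) at 12w. Cxcl12, Zfp36l1 and Smad3 fell from 2w to 12w in Wt, and none of the 8 rose.

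Hypoxia response genes, a list that holds several inducers of anaerobic glycolysis, were mixed. Of 16 tested, 1 rose and 1 fell at 2w, where 6.07% and 4.55% of all tested genes did. At 12w 3 rose and 3 fell, beside 12.5% and 11.2%. The medians were 0.12 and 0.03. Egln3, a prolyl hydroxylase induced by low oxygen, rose by 1.59 (SE 0.43, adjusted p = 0.0319) and 2.47 (SE 0.44, adjusted p = 0.00119). Pfkfb3, an activator of glycolysis, was 0.62 at 2w (SE 0.26, adjusted p = 0.146) and rose by 1.58 at 12w (SE 0.28, adjusted p = 0.00104). Slc2a1, listed here too, fell at 12w as given above, together with Pgk1 and Vhl, which were named after their values were seen.

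**Figure D5:**
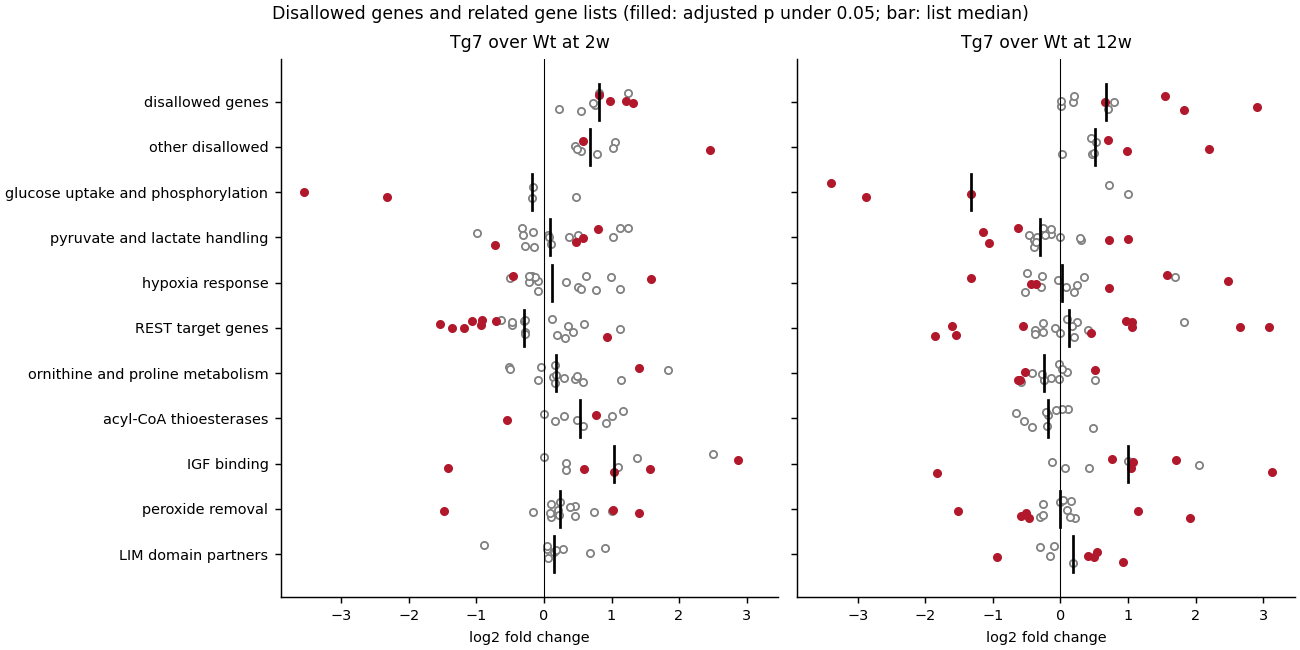
Log2 fold change of Tg7 over Wt (x axis) at 2w and 12w for the 10 disallowed genes and the related lists described above (y axis). Every tested gene is a point, filled past an adjusted p of 0.05, with a bar at the list median. The disallowed genes had medians of 0.82 and 0.68 with no called gene below 0, whereas the REST targets and the pyruvate and lactate list held called genes on both sides.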

How the data were processed

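Islet RNA of 12 libraries was sequenced in paired-end mode. The authors removed adapters by Trimmomatic, mapped to mm9 by TopHat2 (2.0.11), used featureCounts for gene totals and deposited raw counts of 37991 Ensembl genes, every column of which matched a sample. The strand setting and the treatment of reads shared between genes were not given in the sources used here, so overlapping genes and processed copies (as Ldha has) may share reads. Of the gene identifiers, 37205 matched a symbol in GENCODE vM1.

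Counts were fitted with edgeR 4.0.16 (R 4.3.3, limma 3.58.1): quasi-likelihood test on 4 group means over all 12 libraries, TMM factors, filterByExpr with a minimum count of 10 and total of 15, and Benjamini-Hochberg adjustment over 15961 genes, with calls at 0.05. The study's own method, DESeq2 (1.42.0 here), was an alternative. CPM used the TMM-scaled library sizes, and CPM per kb the union exon length of vM1. The standard error is the log2 fold change over the root of the F statistic. Correlations used log2 CPM with a prior count of 2. Mpc1 and Mpc2 were matched through older symbols. The model was tested on simulated data. Depth limits precision most for Hk2, with 1 to 109 reads per library. Against TMM, scaling by library size alone shifted the fold changes by a median of 0.17 (log2) at 2w, 0.44 at 12w, -0.39 for age in Wt, -0.12 for age in Tg7 and 0.27 for the interaction, and values are given on the TMM scale. Of all genes called, 57.2% were higher at 2w by TMM and 84.0% by library size, and 52.7% against 93.5% at 12w, 50.0% against 7.9% for age in Wt, 53.9% against 37.8% in Tg7 and 73.9% against 93.1% for the interaction.

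The 10 members and all lists were chosen with earlier results of these data known. All members are named; from each other list the text names up to 3 called genes with the lowest p, plus Ldhb, Slc16a3, Bsg, Mpc1, Mpc2 and Pdk1, and the 5 genes most correlated with Ldha and with Slc16a1. Some members of the lists are not reported here and were left out of their counts.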

Additional observations from a re-analysis of the deposited data

How the results depend on the processing

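The numbers of members called were recomputed under 9 other settings and with every library left out in turn. At 2w the count of 4 became 7 with library size alone and 7 with DESeq2, and ran from 0 to 6 with 1 library left out. At 12w it was 6 with library size alone and ran from 4 to 6. For age in Wt the count of 4 became 2 with GC and length offsets (added after seeing the data) and ran from 2 to 4, and for age in Tg7 the count of 1 ran from 0 to 1. The interaction count was 0 under every setting. The causes were not tested.

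Same-numbered Tg7 and Wt libraries had residual correlations of -0.0214, -0.167 and -0.0343 at 2w and -0.0894 and -0.0112 at 12w. So few libraries cannot settle whether the numbers mark pairs. With the replicate block, 4 members were called at 2w, 4 at 12w, 3 for age in Wt, 1 in Tg7 and 0 for the interaction. Replicate 4 of Wt 12w was the only library with that number, so the block fit in effect left it out. The block also joined libraries of both ages by number.

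Of the log2 fold changes of the 10 members, 46 of 1020 recomputed values changed sign, and 15 of 1340 for the other named genes. For Tg7 against Wt at 12w, Igfbp4 became -0.0084 with DESeq2, -0.033 with that age fitted alone, -0.0053 with factors computed without the 20 most abundant genes, -0.31 with GC and length offsets and -0.43 with the replicate block. Lmo4 became -0.00078 with DESeq2, -0.021 with that age alone, -0.0073 without the 20 most abundant genes in the factors and -0.16 with GC and length offsets. With the block Ldha was -0.13, Cat -0.12 and Slc16a3 0.066. With library size alone Acot11 was 0.26, Ldhb 0.020, Slc16a3 0.42 and Mpc2 0.20, and with upper-quartile factors Slc16a3 was 0.073. At 2w, Prdx6 and Lmo2 were -0.015 and -0.16 with GC and length offsets. The interaction became 0.23 for Rest with library size alone and -0.13 for Acot7 with the block. For age in Wt, library size alone gave -0.14 for Ldha, -0.20 for Cat and -0.28 for Lmo4, and the block gave 0.012 for Acot7. For age in Tg7, GC and length offsets gave 0.023 for Hk1.

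With 1 library left out, the values that changed sign ran as follows. At 12w they ran from -0.12 to 0.48 for Ldha, -0.350 to 0.387 for Igfbp4, -0.025 to 0.53 for Cat, -0.13 to 0.16 for Lmo4 and -0.28 to 0.49 for Slc16a3. At 2w they ran from -0.15 to 0.34 for Lmo2. The interaction ran from -0.18 to 0.16 for Rest and -0.17 to 0.55 for Acot7. For age in Wt they ran from -0.016 to 0.43 for Ldha, -0.65 to 0.089 for Acot7, -0.10 to 0.42 for Cat and -0.075 to 0.28 for Lmo4, and in Tg7 from -0.13 to 0.027 for Hk1 and -0.22 to 0.18 for Acot7. None of these was past the threshold in the fit on all libraries.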
